A study of Mus musculus with 3 samples.

Results

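Polycomb genes were followed in RNA from the front of the head (the rostrum) of embryos of the *tuft* mouse and of its wild-type background strain. The set comprised 37 genes for the core and accessory subunits of Polycomb repressive complexes 1 and 2 (PRC1 and PRC2) and for the enzymes and DNA-binding factor that work with them, and was named by function and not by measured values. All 37 symbols were found among the 24062 genes of the count columns. The wild-type embryos were 3H1 Balb, and the *tuft* embryos were *tuft/tuft* on the same strain, that is, homozygous for a spontaneous nonsense mutation of *Tet1*, and had a neural tube defect. Both groups were taken at E9 with 18 to 22 somites. RNA of 3 embryos was pooled into 1 library per genotype, and the sex of the embryos was not given. There are therefore 2 libraries and no replicate, and no difference below has a replicate check. The sample records list 2 *tuft* samples, and whether the single *tuft* column holds one or the other or both is not given.

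Polycomb proteins keep developmental genes silent in cells where those genes are not needed. PRC2 methylates lysine 27 of histone H3 through EZH2 or EZH1, which are active only when joined to EED and SUZ12. PRC1 attaches ubiquitin to histone H2A through RING1 or RNF2, each paired with a PCGF protein. The PCGF partner decides which PRC1 forms. Canonical PRC1 carries a CBX protein, which reads the PRC2 mark, and a polyhomeotic (PHC) protein. Variant PRC1 carries RYBP or YAF2 in place of CBX. Loss of Polycomb function in the mouse embryo is known for shifts in the body plan and for arrest of early development. TET1, which converts methylated cytosine and binds CpG-rich promoters, has been found at many Polycomb targets in embryonic stem cells.

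The wild-type library had 14251942 counts on genes and the *tuft* library 6433067. They were scaled by the trimmed mean of M-values (TMM), with a factor of *tuft* relative to wild type of 0.761, and are given as TMM-scaled CPM, the counts per 1000000 after scaling. A fold change is *tuft* over wild type with its 95% Clopper-Pearson interval, which covers counting error alone (the reads have no molecular identifiers). Where no count was found, a level of up to 3 counts is possible, or 0.535 CPM in *tuft* and 0.184 CPM in wild type. A gene was called when its fold change was at least 2 in either direction, with counts under 3 set to 3. A fold given as "at least" sets the *tuft* level at 3 counts and takes the wild-type count as measured, and the upper limit of the interval beside it also covers the counting error of wild type. Of the 12474 genes with a mean of at least 1 CPM over both libraries, 60.3% were called, 23.7% higher and 36.6% lower in *tuft*, so a call alone does not set a gene apart. *Tet1* itself, in which the mutation changes a base and deletes no exon, had 435 counts in wild type and 32 in *tuft*, with a fold change of 0.214 (0.145 to 0.307).

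All 37 Polycomb genes had counts in wild type, from 75 to 9197, and all passed the minimum of 1 CPM. In *tuft*, 3 had no count and the highest had 25683. Of the 37 genes, 12 were at least 2-fold higher in *tuft* and 7 were at least 2-fold lower, while 18 were within 2-fold. The median log2 fold change was -0.01, against -0.27 over all genes tested. The interval lay wholly beyond 2-fold for 17 of the 19 called genes, the exceptions being *Pcgf1* and *Phc3*. At a threshold of 4-fold, 6 Polycomb genes were higher, against 10.2% of all genes, and 6 were lower, against 24.2%. Higher genes made up 63.2% of the Polycomb calls and 39.4% of all calls. With library totals in place of TMM, which lowers every log2 fold change by about 0.39, these shares were 45.0% and 28.3%. When the median of all genes was set to 0, they were 72.7% and 46.8%.

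**Figure D1:**
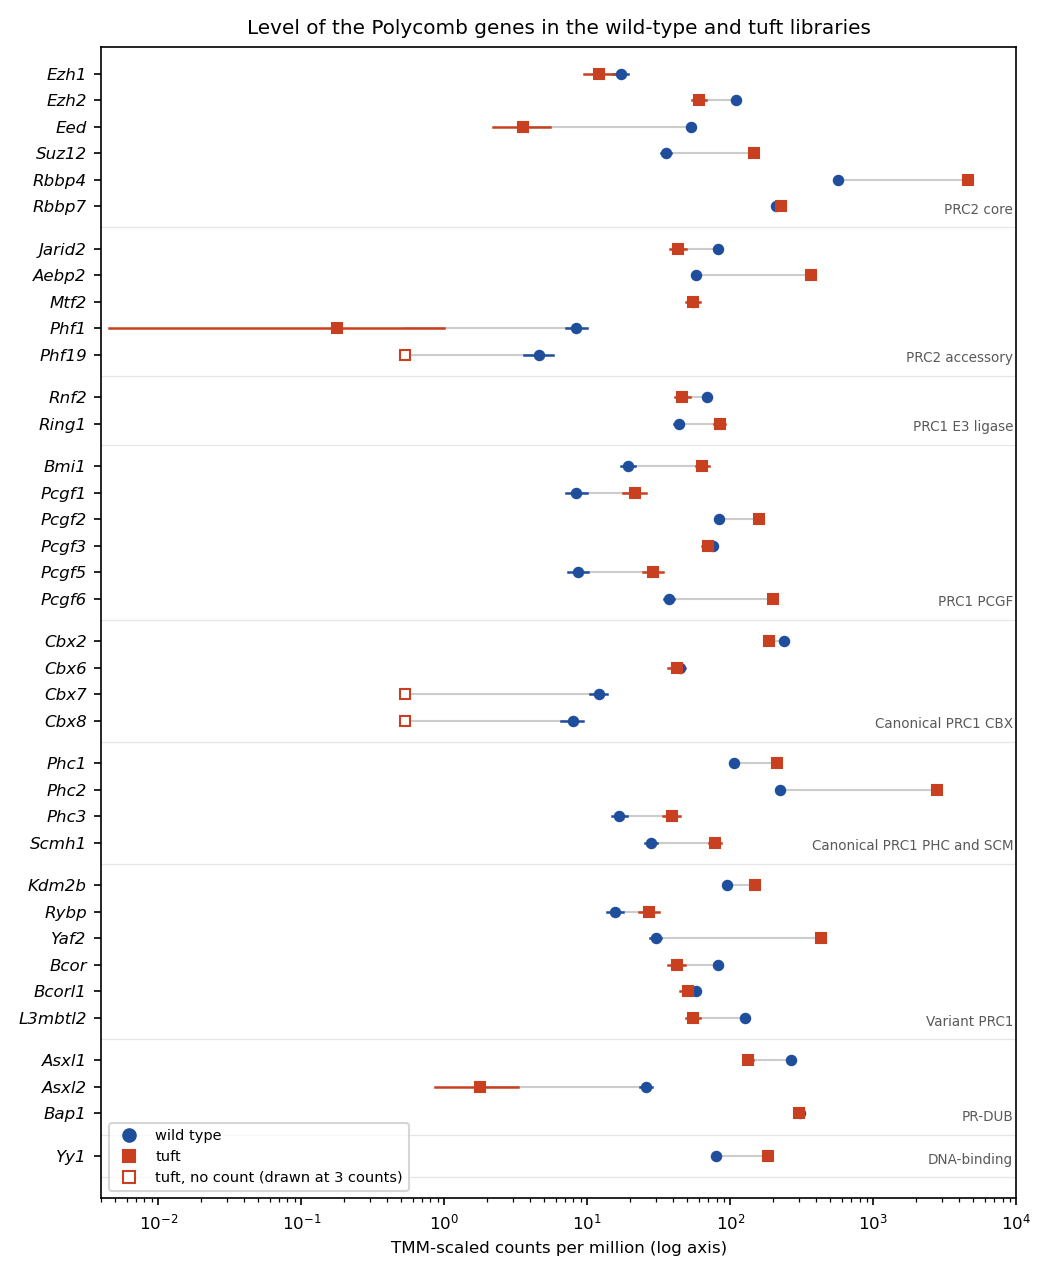
TMM-scaled CPM (log axis) of the 37 Polycomb genes in the wild-type library (circles) and the *tuft* library (squares), grouped by role; bars are 95% Poisson intervals for counting error, and open squares mark 0 counts, drawn at the level of 3 counts. *Rbbp4* and *Phc2* in *tuft* lie farthest to the right, and *Phf19*, *Cbx7* and *Cbx8* had no count in *tuft*.

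The core of PRC2 was split, with *Suz12* and *Rbbp4* higher in *tuft*, *Eed* lower, and both methyltransferase genes within 2-fold. *Eed*, whose product binds the PRC2 mark and switches the enzyme on, had 872 counts in wild type and 20 in *tuft*. These are 53.4 and 3.56 CPM, a fold change of 0.0668 (0.0406 to 0.104). *Suz12*, the scaffold that holds the complex together, had 579 counts in wild type and 815 in *tuft*, more counts in the library with the smaller total. Its level was 35.4 CPM in wild type and 145 in *tuft*, a fold change of 4.10 (3.68 to 4.57). *Ezh2*, the main methyltransferase of dividing embryonic cells, had 1786 and 340 counts, with a fold change of 0.554 (0.492 to 0.623). *Ezh1*, its relative with weaker activity, had 279 and 68 counts and a fold change of 0.710 (0.536 to 0.928). The 3 genes whose products are needed together for activity thus had fold changes of 0.0668 (*Eed*), 0.554 (*Ezh2*) and 4.10 (*Suz12*). Their intervals, which cover counting error alone, did not overlap. Unequal fold changes were common, since 73.4% of all pairs of the genes tested were at least 2-fold apart. Of the 2388 genes with 40 to 80 unscaled CPM in wild type, the range that holds *Eed* and *Suz12*, 18.3% were at least 2-fold higher and 30.0% at least 2-fold lower in *tuft*.

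*Rbbp4* and *Rbbp7* encode closely related histone-binding proteins that PRC2 shares with other chromatin complexes, such as those of histone deacetylases. *Rbbp4* had 9197 counts in wild type and 25683 in *tuft*, the most of any Polycomb gene in either library. Its level was 563 CPM in wild type and 4577 in *tuft*, a fold change of 8.13 (7.94 to 8.33). *Rbbp7* had 3433 and 1270 counts, and its fold change of 1.08 (1.01 to 1.15) was close to no difference. *Rbbp4* and *Phc2* together went from 784 to 7361 CPM, 9.39-fold. The other 35 genes summed to 2513 CPM in wild type and 3524 in *tuft*, 1.40-fold. In bulk RNA, more cells that express a gene and more RNA per cell cannot be told apart.

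The promoters of these core genes are shown because the genes work as 1 unit while their RNA differed between the libraries in opposite directions. The 250 bases before the start site listed for each gene are given 5′ to 3′ on the gene's strand, from RefSeq on GRCm38.p6. They are chr6:47595031-47595280 (minus strand) for *Ezh2*, chr7:89980977-89981226 (minus) for *Eed*, chr11:79992856-79993105 (plus) for *Suz12* and chr4:129335371-129335620 (minus) for *Rbbp4*. The start used for *Ezh2* lies inside the annotated gene, so that 240 of the 250 bases of its window fall within the gene's span, whereas the other windows lie outside their genes. Capitals mark a match to a binding motif of E2F factors, which drive genes of the cell cycle.
Ezh2: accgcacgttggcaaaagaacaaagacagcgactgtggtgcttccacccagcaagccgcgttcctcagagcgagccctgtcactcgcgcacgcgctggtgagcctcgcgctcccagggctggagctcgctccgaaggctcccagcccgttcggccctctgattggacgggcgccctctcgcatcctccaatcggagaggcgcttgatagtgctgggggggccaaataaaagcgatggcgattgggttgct
Eed: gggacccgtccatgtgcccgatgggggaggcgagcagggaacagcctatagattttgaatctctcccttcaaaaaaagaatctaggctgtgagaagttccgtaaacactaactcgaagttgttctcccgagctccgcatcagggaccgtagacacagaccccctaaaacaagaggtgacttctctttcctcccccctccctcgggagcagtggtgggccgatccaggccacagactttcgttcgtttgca
Suz12: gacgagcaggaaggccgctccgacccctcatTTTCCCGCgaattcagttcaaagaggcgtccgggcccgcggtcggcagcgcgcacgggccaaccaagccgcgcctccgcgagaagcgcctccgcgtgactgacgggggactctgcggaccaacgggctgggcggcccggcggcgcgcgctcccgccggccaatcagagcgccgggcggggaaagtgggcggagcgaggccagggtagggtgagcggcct
Rbbp4: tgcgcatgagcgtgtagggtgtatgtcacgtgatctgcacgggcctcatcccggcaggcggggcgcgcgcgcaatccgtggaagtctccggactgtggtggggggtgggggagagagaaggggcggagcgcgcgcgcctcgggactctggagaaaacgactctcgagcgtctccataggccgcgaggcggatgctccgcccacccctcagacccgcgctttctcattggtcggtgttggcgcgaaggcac

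*Suz12* had the most CpG dinucleotides of the 4 windows, 37, followed by *Rbbp4* with 30 and *Ezh2* with 23, while *Eed* had 12. Of the core genes not shown, *Rbbp7* had 34 and *Ezh1* had 14. Promoters were listed for 33 of the 37 genes, in 46 windows. The median window of a Polycomb gene held 20.5 CpG dinucleotides, against 6 in the 32851 windows of all genes. The median was 14 over the 17 windows of the 10 genes called higher and 23 over the 7 windows of the 7 genes called lower. It was 20 over the 22 windows of the 16 uncalled genes. Some genes have several windows, such as *Aebp2* with 1, 14 and 3 CpG dinucleotides. These medians count such genes more than once, so they do not show whether the order of the 4 windows holds across the set. The letters TTTCCCGC or TTTGGCGC (E2F), searched on both strands, were found in 2 of the 46 windows and in 1.30% of all windows. The 2 were those of *Suz12*, called higher, and *Phf19*, called lower. The letters ATGGCGG (YY1) were in none of the 46 and in 2.21% of all, GCATGCGC (NRF1) were in 1 and in 2.26%, and CCGGAAG (ETS factors) were in 3 and in 6.91%. No searched motif contains another.

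The accessory subunits of PRC2 differed as widely as its core. *Aebp2*, a zinc finger protein that stabilizes PRC2, had 943 counts in wild type and 2067 in *tuft*, with a fold change of 6.38 (5.91 to 6.90). *Jarid2*, which joins *Aebp2* in 1 form of PRC2 and helps to bring it to chromatin, had 1336 and 243 counts and a fold change of 0.530 (0.460 to 0.608), just within 2-fold. The Polycomb-like proteins define the other form of PRC2 and bind CpG-rich DNA. Of their genes, *Mtf2* was level, with 901 and 308 counts and a fold change of 0.995 (0.872 to 1.13). *Phf1* had 137 counts in wild type and 1 in *tuft*, a fold change of 0.0213 (0.000534 to 0.120). *Phf19* had 75 counts in wild type and none in *tuft*, at least 8.59-fold lower (upper limit of the fold change 0.147). *Mtf2* was thus the only Polycomb-like gene of the 3 with more than 1 count in *tuft*.

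**Figure D2:**
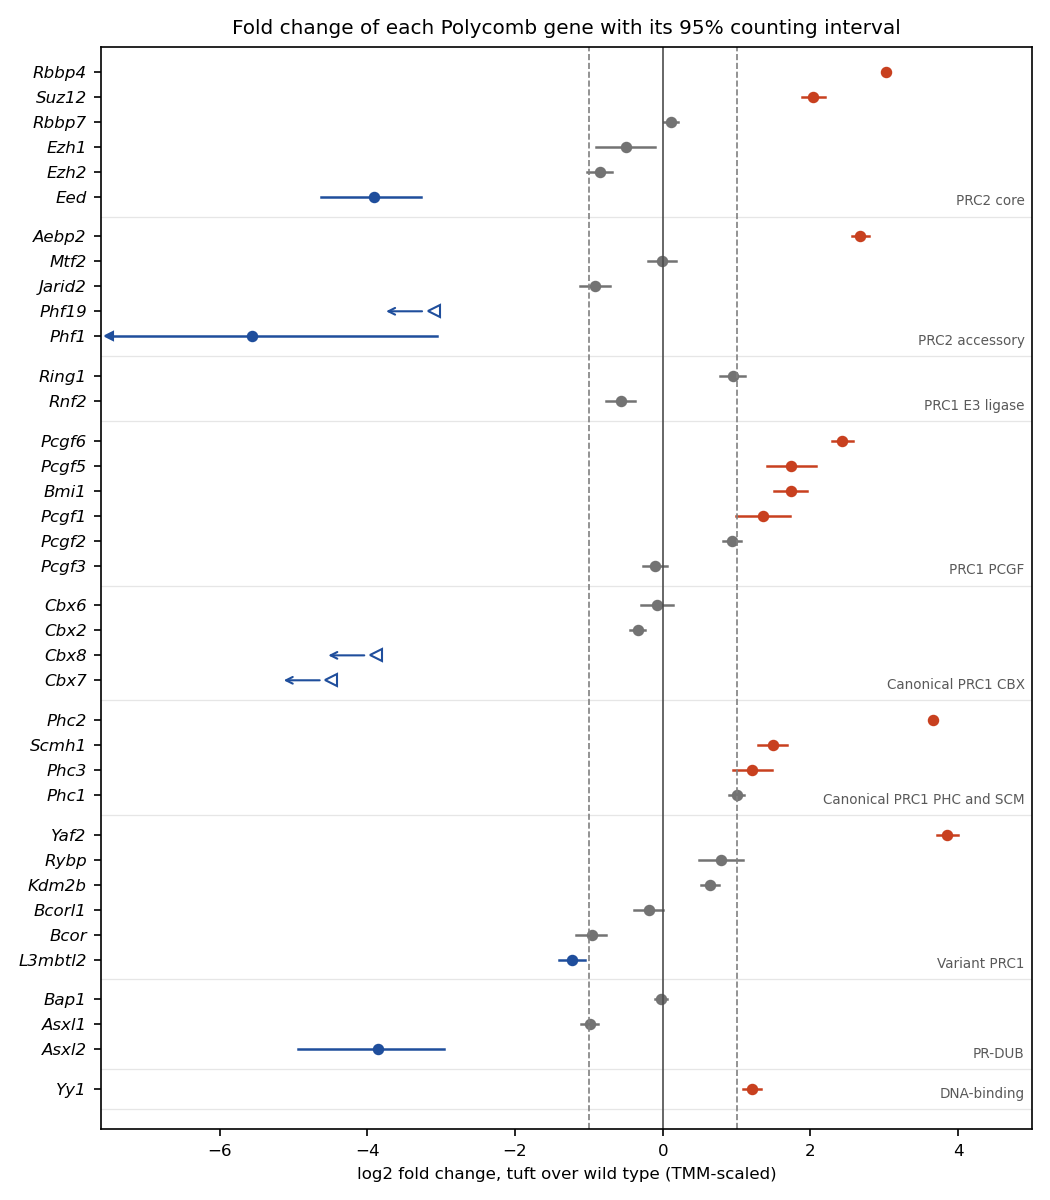
Fold change of each Polycomb gene, *tuft* over wild type (log2 axis), with its 95% counting interval, sorted within each role. Red marks genes at least 2-fold higher, blue genes at least 2-fold lower and grey genes in between (dashed lines at 2-fold); open triangles with arrows are upper bounds for genes with no count in *tuft*, and the interval of *Phf1* runs off the axis to the left.

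The catalytic subunits of PRC1 were both within 2-fold and on opposite sides of no difference. *Rnf2*, the main ubiquitin ligase of the complex in embryos, had 1116 counts in wild type and 259 in *tuft*, a fold change of 0.676 (0.588 to 0.774). *Ring1*, its paralog, had 713 and 473 counts, with a fold change of 1.93 (1.72 to 2.17).

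Of the 6 PCGF genes, 4 were at least 2-fold higher in *tuft* and none was lower by that much. *Pcgf6*, which marks a variant PRC1 that silences germline genes, had 604 counts in wild type and 1121 in *tuft* and a fold change of 5.40 (4.89 to 5.98). *Pcgf5* had 141 and 162 counts, with a fold change of 3.35 (2.65 to 4.22), and *Bmi1*, a canonical PRC1 gene known for the self-renewal of stem cells, had 313 and 357 counts, with a fold change of 3.32 (2.85 to 3.88). *Pcgf1*, the partner of KDM2B and BCOR, had 137 and 121 counts, with a fold change of 2.57 (1.997 to 3.31). It fell below 2-fold with library totals. *Pcgf2*, the relative of *Bmi1*, had a fold change of 1.91 (1.75 to 2.08), and *Pcgf3* had 0.929 (0.827 to 1.04). The 4 called genes therefore belong to both canonical and variant PRC1. Over all genes 23.7% were higher, and *Pcgf1* and *Pcgf5* were in the range of 5 to 10 CPM of the unscaled library in wild type, where 26.4% of genes were.

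None of the 4 CBX genes was higher. *Cbx2*, the most abundant of them, had 3872 counts in wild type and 1053 in *tuft*, a fold change of 0.792 (0.739 to 0.848). *Cbx6* had 725 and 236 counts and a fold change of 0.948 (0.815 to 1.10). *Cbx7*, which is prominent in embryonic stem cells, had 196 counts in wild type and none in *tuft*, at least 22.4-fold lower (upper limit 0.0553). *Cbx8* had 129 counts and none, at least 14.8-fold lower (upper limit 0.0845). The canonical readers in *tuft* were thus represented by *Cbx2* and *Cbx6* at near wild-type levels, and *Cbx7* and *Cbx8* were not detected at this depth. *Cbx2* and *Cbx8* are neighbours on chromosome 11, with 5027 bases between them, and *Cbx6* and *Cbx7* lie 81470 bases apart on chromosome 15, so in each pair of neighbours 1 gene had counts in *tuft* and the other had none. Genes without a count in *tuft* were common at these levels. The span of *Cbx7* overlaps *Apobec3*, and that of *Rbbp7* overlaps *Txlng*, and reads that fall on both genes of such a pair may not have been counted. Of the 1320 genes with 5 to 10 unscaled CPM in wild type, as *Cbx8*, *Phf1* and *Phf19* had, 29.1% had no count in *tuft*. Of the 1711 genes with 10 to 20, as *Cbx7* had, 12.9% had none. Of all genes tested, 7.17% had a lower fold change than *Eed* and 7.46% a lower one than *Asxl2*. These 2 shares take in genes of every level in wild type. Of genes with 40 to 80 unscaled CPM in wild type, as *Eed* had, 2.39% had at most 3 counts in *tuft*. Of those with 20 to 40, as *Asxl2* had, 8.19% did. *Eed* and *Asxl2* themselves had 20 and 10 counts in *tuft*.

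The polyhomeotic genes and the SCM gene *Scmh1* encode proteins that join PRC1 complexes into larger assemblies. All 4 had a fold change above 1, and 3 were at least 2-fold higher, against 23.7% of all genes. *Scml2*, an SCM gene of a second list described below, went the other way, with 54 counts in wild type and none in *tuft*. *Phc2* (chr4:128654655-128752881, GRCm38.p6) had 3613 counts in wild type and 15621 in *tuft*, or 221 and 2784 CPM, a fold change of 12.6 (12.1 to 13.1). Of all genes tested, 97.4% had a lower fold change. *Scmh1* had 454 and 437 counts and a fold change of 2.80 (2.45 to 3.20). *Phc3* had 274 and 218 counts and a fold change of 2.32 (1.93 to 2.78), which fell below 2-fold with library totals. *Phc1* had 1745 and 1198 counts and a fold change of 1.999 (1.86 to 2.15), just under the threshold, so it was not counted among the 12.

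**Figure D3:**
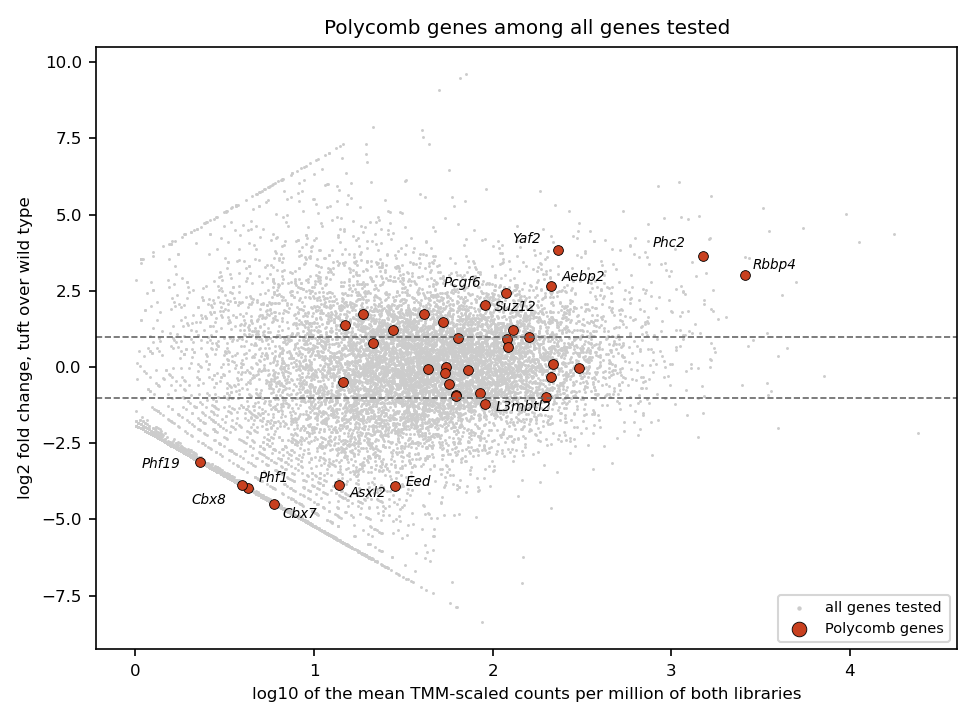
Log2 fold change (*tuft* over wild type, counts under 3 set to 3) against the log10 of the mean TMM-scaled CPM of both libraries for the 12474 genes tested (grey) and the 37 Polycomb genes (red), with dashed lines at 2-fold. *Yaf2*, *Phc2* and *Rbbp4* are the highest of the Polycomb genes, and *Phf1*, *Phf19*, *Cbx7* and *Cbx8* lie on the lower left line formed by genes at or under 3 counts in *tuft*.

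Among the genes of variant PRC1, *Yaf2* had the highest fold change of all 37. Its product and that of *Rybp* compete for the same place beside RING1 and RNF2. *Yaf2* (chr15:93283833-93336935) had 491 counts in wild type and 2431 in *tuft*, or 30.1 and 433 CPM, a fold change of 14.4 (13.1 to 15.9). *Rybp* had 256 and 152 counts and a fold change of 1.73 (1.40 to 2.12). *Kdm2b*, which brings variant PRC1 to unmethylated CpG islands, had 1548 and 831 counts and a fold change of 1.56 (1.43 to 1.70). *Bcor*, a scaffold of the same complex, had 1340 and 236 counts and a fold change of 0.513 (0.445 to 0.589), and its relative *Bcorl1* had 0.877 (0.765 to 1.00). *L3mbtl2*, a subunit of the PCGF6 complex, had 2082 and 306 counts and a fold change of 0.428 (0.378 to 0.483). *L3mbtl2* and *Pcgf6*, whose products share a complex, thus lay on opposite sides, both beyond 2-fold. The call of *L3mbtl2* was lost when the median of all genes was set to 0.

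BAP1 removes the ubiquitin that PRC1 adds and needs an ASXL partner. *Bap1* was level, with 5029 counts in wild type and 1704 in *tuft* and a fold change of 0.987 (0.933 to 1.04). *Asxl1* had 4320 and 748 counts and a fold change of 0.504 (0.466 to 0.545), just short of 2-fold lower. *Asxl2* had 423 counts in wild type and 10 in *tuft*, 25.9 and 1.78 CPM, a fold change of 0.0688 (0.0328 to 0.128). *Yy1*, a zinc finger factor related to the fly protein that recruits Polycomb, had 1291 and 1024 counts and a fold change of 2.31 (2.13 to 2.51), a call that was lost with library totals.

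The balance between related genes was then compared within each library, where the ratio of 2 genes does not depend on the scaling. Such a ratio shows unequal change, not which partner changed. Of 16 pairs drawn from 30 of the genes, 13 had ratios that differed at least 2-fold between the libraries. Over all pairs of the genes tested, 73.4% had fold changes at least 2-fold apart. *Rybp* held 34.3% (30.9 to 37.8) of the counts of *Rybp* and *Yaf2* in wild type and 5.88% (5.01 to 6.86) in *tuft*. *Jarid2* held 58.6% (56.6 to 60.7) of the counts shared with *Aebp2* in wild type and 10.5% (9.30 to 11.8) in *tuft*, so the order of the 2 cofactors turned. Their ratio was 12.1 times lower in *tuft* (95% conditional interval 10.3 to 14.2). *Ring1* held 39.0% (36.7 to 41.3) of the counts of the ligase genes in wild type and 64.6% (61.0 to 68.1) in *tuft*, and here too the order turned. *Rbbp4* went from 72.8% (72.0 to 73.6) of the *Rbbp4* and *Rbbp7* counts to 95.3% (95.03 to 95.54). *Phc1* went from 32.6% (31.3 to 33.8) to 7.12% (6.74 to 7.52) of the counts shared with *Phc2*, and *Phc3* from 7.05% to 1.38%.

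The balance of the methyltransferase genes differed by less than counting error. *Ezh1* held 13.5% (12.1 to 15.1) of the counts of *Ezh1* and *Ezh2* in wild type and 16.7% (13.2 to 20.6) in *tuft*, and the ratio of the ratios, 1.28, had an interval that included 1 (0.944 to 1.72). The ratio of *Pcgf2* to *Bmi1* was 1.74 times lower in *tuft* (1.46 to 2.08) and that of *Bcor* to *Bcorl1* 1.71 times lower (1.41 to 2.08). These were the 3 pairs within 2-fold. *Pcgf3* held 89.8% of the counts shared with *Pcgf5* in wild type and 70.9% in *tuft*, and *Pcgf1* held 18.5% and 9.74% of those shared with *Pcgf6*. *Asxl1* held 91.1% and 98.7% of those shared with *Asxl2*. The remaining 4 pairs have a partner with 1 count or none in *tuft* (*Cbx7*, *Cbx8*, *Phf1* or *Phf19*).

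**Figure D4:**
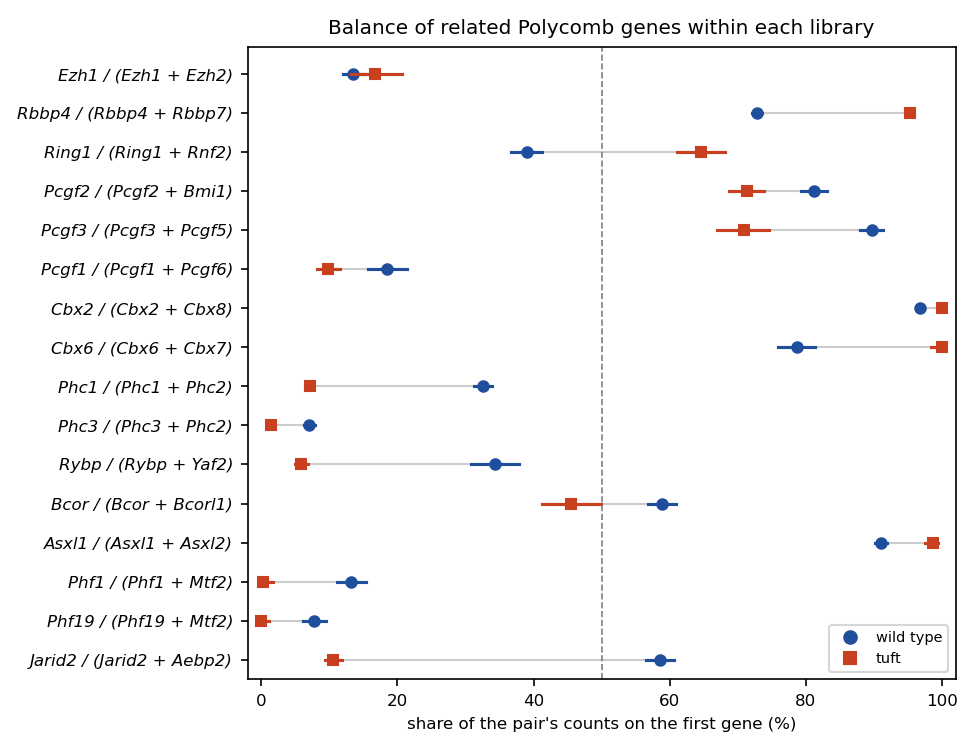
Share of a pair's counts that fell on the first gene (%), within the wild-type library (circles) and the *tuft* library (squares), for 16 pairs of related or cooperating Polycomb genes; bars are 95% Clopper-Pearson intervals and the dashed line marks equal counts. *Jarid2*, *Ring1* and *Bcor* cross the line between the libraries, and *Ezh1* stays at 13.5% and 16.7%.

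Levels of different genes were compared per kilobase of the longest transcript, as TMM-scaled CPM per kb. In wild type *Rbbp4* had the highest level at 128, followed by *Rbbp7* at 93.6, *Bap1* at 90.4 and *Cbx2* at 62.2. In *tuft* the order began with *Rbbp4* at 1039, *Phc2* at 717, *Yaf2* at 258 and *Rbbp7* at 101. *Yaf2* stood at rank 16 of 37 in wild type and at rank 3 in *tuft*. *Ezh2* went from rank 6 (41.2) to 17 (22.8), and *Eed* from rank 11 (25.8) to 32 (1.73). In wild type the level of *Eed* was above that of *Suz12* (25.8 and 8.10), whereas in *tuft* *Suz12* was above *Eed* (33.2 and 1.73).

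A second list held 35 genes of proteins that act with Polycomb complexes, of which 33 passed the minimum. Of these, 3 (9.09%) were at least 2-fold higher, 10 (30.3%) lower and 20 in between, with a median log2 fold change of -0.41. Over all genes tested, 23.7% were higher and 36.6% lower, with a median of -0.27. *Skp1a*, a subunit shared by the KDM2B complex and other ubiquitin ligases, had 3658 counts in wild type and 6742 in *tuft*, a fold change of 5.37 (5.15 to 5.59). *Fbrs*, a subunit of variant PRC1 with PCGF3 or PCGF5, had 511 and 870 counts and a fold change of 4.96 (4.44 to 5.54). *Wdr5*, a subunit of the PCGF6 complex and of several activating complexes, had 3787 and 174 counts, with a fold change of 0.134 (0.114 to 0.156). *Csnk2b*, a casein kinase subunit found in variant PRC1, had 3205 counts in wild type and 166 in *tuft*, with a fold change of 0.151 (0.128 to 0.176). *Sfmbt1*, which encodes an MBT repeat protein, had 675 counts and 1, a fold change of 0.00431 (0.000109 to 0.0241), and *Sfmbt2* had 118 and 1, a fold change of 0.0247 (0.000620 to 0.140), while *Scml2* and *Lcor* had 54 and 86 counts in wild type and none in *tuft*, at least 6.18-fold and 9.84-fold lower (upper limits 0.206 and 0.128). *Csnk2a2*, the third higher gene, had a fold change of 2.63 (2.41 to 2.86).

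Calls were also made among chromatin genes outside Polycomb. Of 17 genes of histone H3 lysine 9 methylation, 3 were higher and 5 lower, with a median log2 fold change of -0.47, and of 25 measured BAF complex genes 7 were higher and 7 lower, with a median of 0.07. The Polycomb genes had 12 higher and 7 lower of 37 with a median of -0.01. All genes tested had 23.7% higher and 36.6% lower, with a median of -0.27. With 1 library per genotype the lists could not be tested against each other, and none is called different here.

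Marker genes of the tissue and of other cell types also differed between the libraries. The shares to set beside their calls are 23.7% higher and 36.6% lower over all genes tested. Of 8 rostral head markers, 7 had counts in both libraries and *Hesx1* had none in *tuft*; 1 was higher and 2 were lower, and the median log2 fold change was -0.55. Their summed level was 499 CPM in wild type and 647 in *tuft*, but without *Six3*, the 1 higher gene, the other 7 summed to 440 and 405 CPM. Of 10 yolk sac markers, 8 were lower and 1 was higher in *tuft*, with sums of 2033 and 327 CPM and with *Apoa4* and *Apoc2* at 0 in *tuft*. Of 6 endothelial markers 4 were lower, with sums of 261 and 94.1 CPM and *Pecam1* at 0 in *tuft*. Of 7 erythroid markers 3 were higher and 2 lower, with sums of 2792 and 40728 CPM, *Gata1* at 0 in *tuft* and *Hba-a1* at 0 in both. Without the embryonic globin genes *Hbb-y* and *Hba-x* the erythroid sums were 986 and 1042 CPM. Sums were 272 and 364 CPM for 6 head mesenchyme markers (*Prrx2* at 0 in *tuft*), or 210 and 168 without *Twist1*. They were 92.2 and 128 for 7 neuron markers, of which 1 was higher and none lower. For 6 surface ectoderm markers they were 533 and 894, with 1 higher and 1 lower. Of these 6, 4 had a fold change above 1. *Krt8* went from 123 CPM in wild type to 385 in *tuft*, *Krt18* from 181 to 350 and *Cdh1* from 126 to 28.9. Genes of DNA replication and division, with which *Ezh2* is known to be expressed, had sums of 5449 and 4896 CPM, and 9 of the 15 were lower and 2 higher. Their part in the differences of the Polycomb genes was not tested.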

How the data were processed

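Poly-A RNA of E9 rostrums was read from a single end on the Ion Proton platform, with 1 library per genotype from 3 pooled embryos. The authors trimmed reads with PRINSEQ, aligned them to mm10 with TopHat (TopHat2 2.0.14 and Bowtie2 2.2.5 per the labels) and deposited raw counts per gene symbol from htseq-count. Its version, strand setting and gene models are not given in the sources used here. The 5 summary lines of each column were left out. They held 62.7% of all entries in wild type and 72.6% in *tuft*, mostly alignments that were not unique (51.4% and 59.2%), so genes with close copies can be undercounted. Columns were matched to genotypes by their names.

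The members, lists and methods were chosen with earlier results of these data known. Counts were scaled with TMM in edgeR 4.0.16 (R 4.3.3). All other steps used Python 3.11.15 with scipy 1.17.1. Only the scaled fold changes with their intervals and the interval of a ratio of ratios were tested on simulated data. Most genes were left unchanged in that simulation, whereas 60.3% of the genes tested here were called. With 1 library per genotype no residual degrees of freedom remain for the edgeR quasi-likelihood test, and the simulation-based NOISeq-sim of the study was not used, so no p-value is given. Intervals cover counting error only and have a level of 95%. Transcript lengths came from NCBIM37 (GENCODE) for all 37 genes, and positions and promoters from RefSeq GRCm38.p6, the assembly of mm10. All 37 genes are named, as are genes of the second list past 4-fold with at least 30 counts in both libraries together and, by count, markers. Alternatives were other scalings, minima, floors and thresholds, and lists without overlapping or closely copied genes.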

Additional observations from a re-analysis of the deposited data

How the results depend on the processing

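The number of higher Polycomb genes was 8 to 17 under all alternatives but a threshold of 4-fold, which left 6. Over all genes the higher share was 17.4% to 31.8% under these alternatives and 10.2% at 4-fold. The lowest number, 8, was out of the 22 genes left without overlapping genes. The number of lower genes, 7 of 37 in the report, was 11 of 37 with library totals or at 1.5-fold. Of all genes, 44.1% and 43.8% were lower under these settings. It was 4 of 34 at a minimum mean of 5 CPM and 3 of 33 at 10 CPM, against 28.9% and 25.7% of all genes. Without the 15 genes whose span overlaps another annotated gene it was 3 of 22, against 36.6%. Higher minima remove genes at 0 in *tuft* by construction, and of the 15 only *Rbbp4*, *Rbbp7*, *Cbx7* and *L3mbtl2* overlap a gene with counts. The median log2 fold change, -0.01, was -0.40 with library totals (all genes -0.69) and 0.26 with the median of all genes set to 0. It was 0.38 and 0.64 at 5 and 10 CPM (all genes -0.04 and 0.03) and 0.46 without overlapping genes (all genes -0.27). Its sign thus depends on the setting. With upper quartile or median-of-ratios scaling no call was lost. Under all 5 scalings 9 genes were called higher (*Aebp2*, *Bmi1*, *Pcgf5*, *Pcgf6*, *Phc2*, *Rbbp4*, *Scmh1*, *Suz12* and *Yaf2*) and 6 lower (*Asxl2*, *Cbx7*, *Cbx8*, *Eed*, *Phf1* and *Phf19*). No called gene changed direction, and none could. These scalings shift every log2 fold change by the same amount, at most 0.39, which is less than a call requires. Adding 0.5 to every count again gave 13 pairs past 2-fold. No replicate could be left out. No paired analysis was possible because each genotype has 1 column of counts.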

Other observations

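Posterior *Hox* genes, a classic set of Polycomb targets that is silent in the head, were near or at 0 in both libraries. Of 21 genes, 12 had no count in wild type and 18 had none in *tuft*, and their levels summed to 2.39 CPM in wild type and 0.535 CPM in *tuft*. The highest was *Hoxc8* with 17 counts in wild type and none in *tuft*. The 3 genes with counts in *tuft* had 1 each. Across the 37 Polycomb genes, the log2 fold change had a Spearman correlation of -0.13 with transcript length and of 0.09 with the level in wild type, given as a description of genes from the same libraries. Over 11358 genes tested with a known length, the values were -0.02 and 0.03.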
